A study of Drosophila melanogaster with 9 samples.

Results

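The 3 arrays labelled comr were compared with the 3 can arrays, mutant testes against mutant testes, over all 13966 probe sets on the array that were not array controls, of 14010 in all; 6 of the 9 arrays of the series enter the comparison directly. Testes were dissected by hand from Drosophila melanogaster males within a day of eclosion, reared at 25 °C, with accessory glands and ejaculatory ducts removed. The arrays labelled comr carry the genotype comr[z1340] cn[1] bw[1]. The can arrays carry w ; can[3] red[1] e[1], and the 3 control arrays are red[1] e[1], the chromosome on which can was generated, with normal testes. No gene is mutant in both arrest groups by their labels. The eye and body colour alleles differ between the mutants together with the arrest mutation, and can shares red e with the control while the comr line does not, so strain and mutation cannot be told apart. The title and genotype of the first mutant group name comr, but the source name and description of the same arrays name aly, another gene of the same arrest class, so the group is called "labelled comr" or, for short, comr.

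Meiotic arrest mutants stop spermatogenesis in mature primary spermatocytes, which neither divide nor form spermatids. The mutants compared here stand for a pair of protein complexes. tMAC, the testis meiotic arrest complex, is a spermatocyte form of the Myb-MuvB complex and holds the products of comr and aly. The testis TAFs, among them the product of can, are spermatocyte versions of subunits of the general transcription factor TFIID. Mutants of the tMAC class are classically described as losing transcripts of both meiotic division genes and spermatid genes, while mutants of the can class lose spermatid transcripts and keep the division genes. The comparison asks directly, gene by gene, where testes of the 2 arrest classes differ.

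Values were deposited as linear array intensities, scaled so that each array has the same trimmed mean, and are called signals below. A log2 difference is the mean of log2(signal + 16) in comr minus that in can, so a negative value is a lower signal in comr. A probe set was called when the limma adjusted p over all 13966 was under 0.05 and the difference was at least 2-fold. The floor is 20.3, the highest signal of 23 control probe sets for which no RNA was added. Where all 3 arrays of a mutant lie at or under it, the fold is given as a bound against the floor. Bounds are ratios of signals, whereas log2 differences carry the offset of 16 and understate changes of dim genes. A probe set's level is not comparable with that of another probe set. The labels do not say that arrays of a group came from separate dissections, so p-values measure the spread between arrays only.

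The 6 arrays separated cleanly by mutant. Correlations of log2 signals across probe sets ran from 0.986 to 0.99 within comr, from 0.981 to 0.983 within can, and from 0.888 to 0.894 between the mutants. Against the control arrays they ran from 0.807 to 0.819 for can and from 0.618 to 0.635 for comr. These correlations are across genes, which are not independent. GAPDH signal at the 3' end over that at the 5' end, a sign of RNA length, was 5.99 ± 0.635 in comr and 5.52 ± 1.33 in can (SD, n = 3 arrays each) against 2.59 ± 0.294 in control. The same ratio for eIF-4a was 6.76 ± 0.866 in comr and 3.83 ± 0.490 in can, with no overlap, and that for actin was 2.43 ± 0.163 and 2.57 ± 0.259, with overlap. Mean signal over 11 accessory gland genes varied inside each group, from 4.38 to 179 over the comr arrays and from 10.1 to 359 over the can arrays. Leaving out the comr and the can array with most of it gave 1030 probe sets lower and 468 higher. The part of RNA length, carry-over or strain in the differences below was not tested.

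At 2-fold or more, lower levels in comr outnumbered higher ones, and the largest differences lay almost entirely on that side. In comr, 1015 probe sets were called lower (7.27%) and 455 higher (3.26%), together 10.5% of those tested. The arrays of the mutants did not overlap for 6708 probe sets (48.0%), so separation alone is common here. At 4-fold or more, 438 were lower and 27 higher. At 8-fold or more the numbers were 148 and 3, and at 16-fold or more 32 and 0. The median difference over all probe sets was -0.02. The split depends on the minimum fold: by adjusted p alone, 2443 were lower and 2494 higher. It also depends on the scaling. As deposited 69.0% of calls were lower, against 56.2% when arrays were centred on ribosomal protein genes. The share was 57.0% when centred on the spiked controls and 75.2% when centred on the array median.

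**Figure D1:**
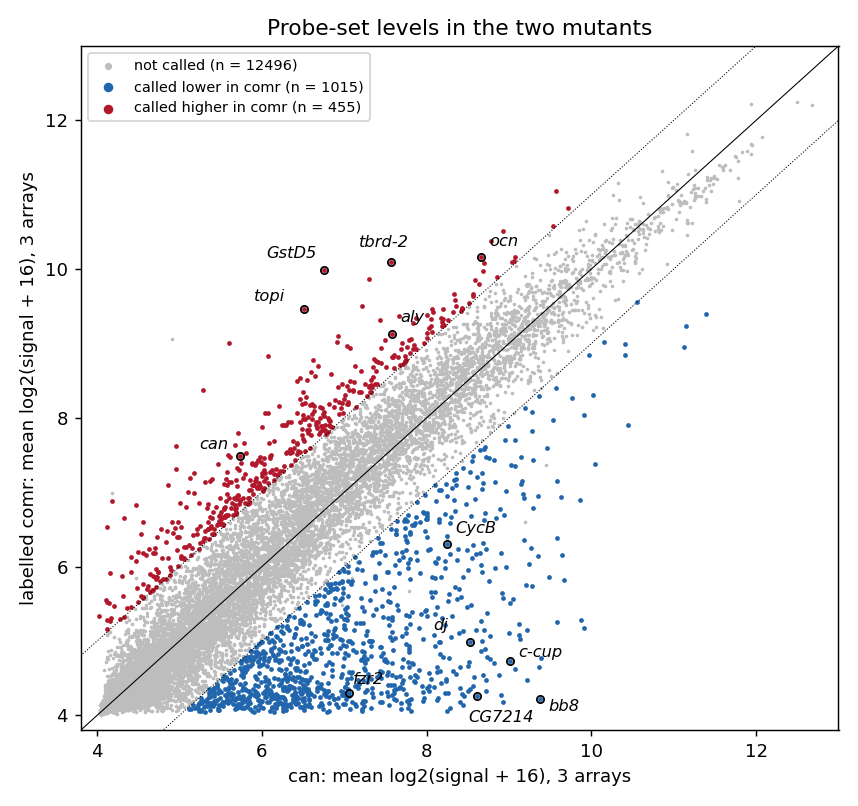
Mean log2(signal + 16) over 3 arrays per probe set, can on the x axis and labelled comr on the y axis, with the 1:1 line and dotted lines at 2-fold. The 1015 probe sets called lower in comr (blue) reach down to the foot of the y axis over a wide range of can levels, while the 455 called higher (red) stay closer to the diagonal.

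Most genes called lower were detected in can and not in comr. In 740 probe sets all 3 can arrays stood above the floor and all 3 comr arrays at or under it, and 606 of these were called lower. Control testes had all 3 arrays above the floor in 628 of the 740, beside 52.9% of all probe sets. The opposite state, above the floor in comr and not in can, held for 172 probe sets, of which 71 were called higher, and 136 of the 172 were at or under the floor in control too. A further 4009 probe sets (28.7%) were under the floor in both mutants. The typical called-lower probe set had a median signal of 327 in control, 103 in can and 10.1 in comr. For the called-higher set the medians were 32.0 in control, 50 in can and 159 in comr.

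Read against control testes, most probe sets called lower were below control in both mutants, and most called higher were above it in comr alone. Of the 1015 called lower, 626 (61.7%) were at least 2-fold below control in both mutants, beside 8.54% of all probe sets. That can lies between comr and control in these follows from the call itself. A further 247 (24.3%) were within 2-fold of control in can and below it in comr alone, beside 3.4% of all probe sets. Of the 455 called higher, 278 (61.1%) were within 2-fold of control in can and at least 2-fold above it in comr, beside 8.23% of all. Above control in both were 99 (21.8%), beside 12.2%. Other positions were less common. At least 2-fold above control in can were 74 of the 1015, beside 14.6% of all probe sets. At least 2-fold below it in can were 30 of the 455, beside 9.29%, 13 of these in both mutants. All 3 comparisons share arrays, so these counts describe position and are not independent tests. In whole testes, fewer cells of a type and less RNA per cell cannot be told apart.

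The share called lower rose with the level in normal testes. It was 1.02% of the 5660 probe sets at or under the floor in control and 3.24% of the 4849 between the floor and 100. From there it was 17.0% of 2542 up to 500, 37.2% of 541 up to 1000 and 44.7% of the 374 above 1000. The share called higher stayed between 1.48% and 4.15% over the same bins. The median difference moved with it, from -0.02 in the lowest bin to -0.37 and -0.69 in the upper 2 bins.

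**Figure D2:**
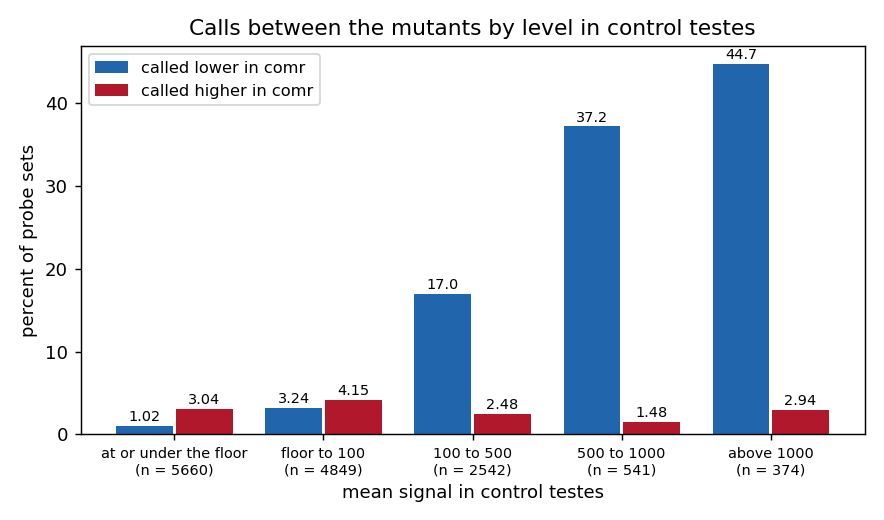
Percent of probe sets called lower (blue) or higher (red) in labelled comr against can, by mean signal in the 3 control arrays, with the number of probe sets under each pair of bars. The blue bars climb from 1.02% to 44.7% while the red bars stay at or under 4.15%.

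By chromosome arm, called-lower probe sets made up 6.64% of X, 9.01% of 2L, 8.26% of 2R, 7.30% of 3L and 7.41% of 3R. The called-higher share was 1.54% on X and between 3.41% and 4.13% on the 4 large autosome arms. Chromosome 4 held 1 call in each direction among 72 probe sets. The comr line carries its marked alleles on chromosome 2, whose arms held the highest shares called lower, and the can line on X and chromosome 3. The part of strain in these shares was not tested.

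Of the 12 measured arrest genes, 6 were called higher in comr than in can and none lower. They were 3 of the 8 tMAC genes, whose median difference was 0.26, and 3 of the 4 testis TAF genes, with a median of 1.5. Over all genes 3.74% were higher, when each of 10844 is read from 1 probe set. The 3 TAF genes include can itself, which is mutant in the can arrays. The part of that lesion in its level was not tested. All measured members of both complexes are given here, whether or not they were called. The largest difference belonged to topi, which encodes a zinc finger subunit of tMAC. Its signal was 651, 675 and 749.8 on the comr arrays and 69.1, 78.9 and 76.9 on the can arrays, with 169.8, 141.5 and 108.6 in control. The mutants lay on opposite sides of control without overlap, and the difference was 2.96 ± 0.13 (SE, adjusted p = 1.5e-08). aly, the tMAC homologue of worm lin-9, had 527, 551 and 559 in comr against 165, 174 and 188 in can and a mean of 86.3 ± 5.63 in control. Both mutants stood above control and comr above can, by 1.55 ± 0.07 (adjusted p = 3.43e-08). wuc, a lin-52 paralogue that binds Aly, averaged 549 ± 22.6 in comr and 240 ± 8.36 in can, a difference of 1.14 ± 0.07 (adjusted p = 2.59e-07).

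comr itself was dim on every array. Its signal was 34.7, 30 and 35.7 in comr, 68.7, 49.1 and 56.6 in can, and 13.9, 14.2 and 23.8 in control. The mutants did not overlap, but the difference of -0.58 ± 0.16 (adjusted p = 0.0167) stayed under 2-fold and was not called. This level does not settle which gene is mutant in the group, because neither the lesion nor where the probes lie relative to it is stated by the labels. Among the other tMAC genes, the difference was 0.45 for tomb, a CXC-domain subunit, -0.05 for the homeodomain gene achi, 0.07 for Caf1-55 and -0.03 for mip40. None of these 4 was called.

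In the testis TAF group, can had 174.7, 165.4 and 149 in comr and 41.4, 27.1 and 45.4 in can, a difference of 1.74 ± 0.17 (adjusted p = 1.13e-05). The can mutant's level overlapped that of control, at 25.3, 28.1 and 41.9. nht, the TAF4 homologue, averaged 645 ± 16.3 in comr and 188 ± 18.1 in can, 1.70 ± 0.14 apart (adjusted p = 2.31e-06). mia, the TAF6 homologue, averaged 499 ± 37.7 and 193 ± 28.4, 1.31 ± 0.10 apart (adjusted p = 1.77e-06). sa, the TAF8 homologue, differed by 0.24 ± 0.06 and was not called, at 1145 ± 29.3 in comr and 969 ± 42.4 in can against 270.4 ± 6 in control. All 4 TAF genes were higher in comr than in control, and in can testes all but can itself were at least 2-fold above it.

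The broadly expressed counterparts of both complexes did not separate the mutants at the same size. Of 11 measured genes, among them Taf4, Taf5, Taf6, mip130, E2f2 and Rbf, none was called, beside 8.64% of all genes lower and 3.74% higher. With so few genes, those shares do not set a count of none apart. Taf4 and mip130 had mean signals under the floor in both mutants. Differences over the 11 genes ran from -0.42 to 0.52 with a median of 0.29. E2f2, a repressive E2F, had means of 378 ± 36.4 in comr and 296 ± 8.81 in can. Taf6 had 310.4 ± 50.7 and 357 ± 94.1, with overlapping arrays and a difference of -0.17 that turned positive when arrays were centred on ribosomal protein genes or on spiked controls.

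Genes that drive meiotic division were lower in comr, for a minority of those measured. Of 12 measured genes 4 were called lower and none higher, against 8.64% of all genes lower. CycB, the mitotic cyclin B, had 63.9, 54.3 and 71.0 in comr, 289.5, 301.1 and 273.3 in can and 131.5, 129.8 and 124.7 in control. The 3 groups did not overlap: comr lay below control and can above it, and the mutants differed by -1.95 ± 0.09 (adjusted p = 2.79e-08). twe, the meiotic Cdc25 phosphatase, had a mean of 55.3 ± 4.97 in comr and 165 ± 30.8 in can, with can overlapping control at 146 ± 24.7. It differed by -1.34 ± 0.14 (adjusted p = 2.13e-05). bol, which encodes an RNA-binding protein needed for translation of twe, was graded across the groups, at 1060 ± 52.7 in control, 407 ± 48.6 in can and 162 ± 3.36 in comr, with the mutants -1.24 ± 0.08 apart (adjusted p = 5.46e-07). fzr2, a testis paralogue of the APC/C activator fizzy-related, was at 3.2, 2.6 and 5.5 in comr and at 111.3, 133 and 108.8 in can. All 3 comr arrays lay under the floor, so it was at least 5.77-fold lower (log2 difference -2.76 ± 0.1, adjusted p = 4.12e-09).

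The other 8 division genes were not called. mei-S332, the fly shugoshin, had a mean of 96.1 ± 4.78 in comr and 168 ± 15.2 in can, a difference of -0.71. The cyclin-dependent kinase inhibitor rux differed by -0.54 and CycB3 by -0.44. Mps1, ord, aurB and pelo lay on the other side of 0, between 0.24 and 0.49, and SA2 was at -0.14. The list therefore held differences in both directions, with a median of -0.49.

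**Figure D3:**
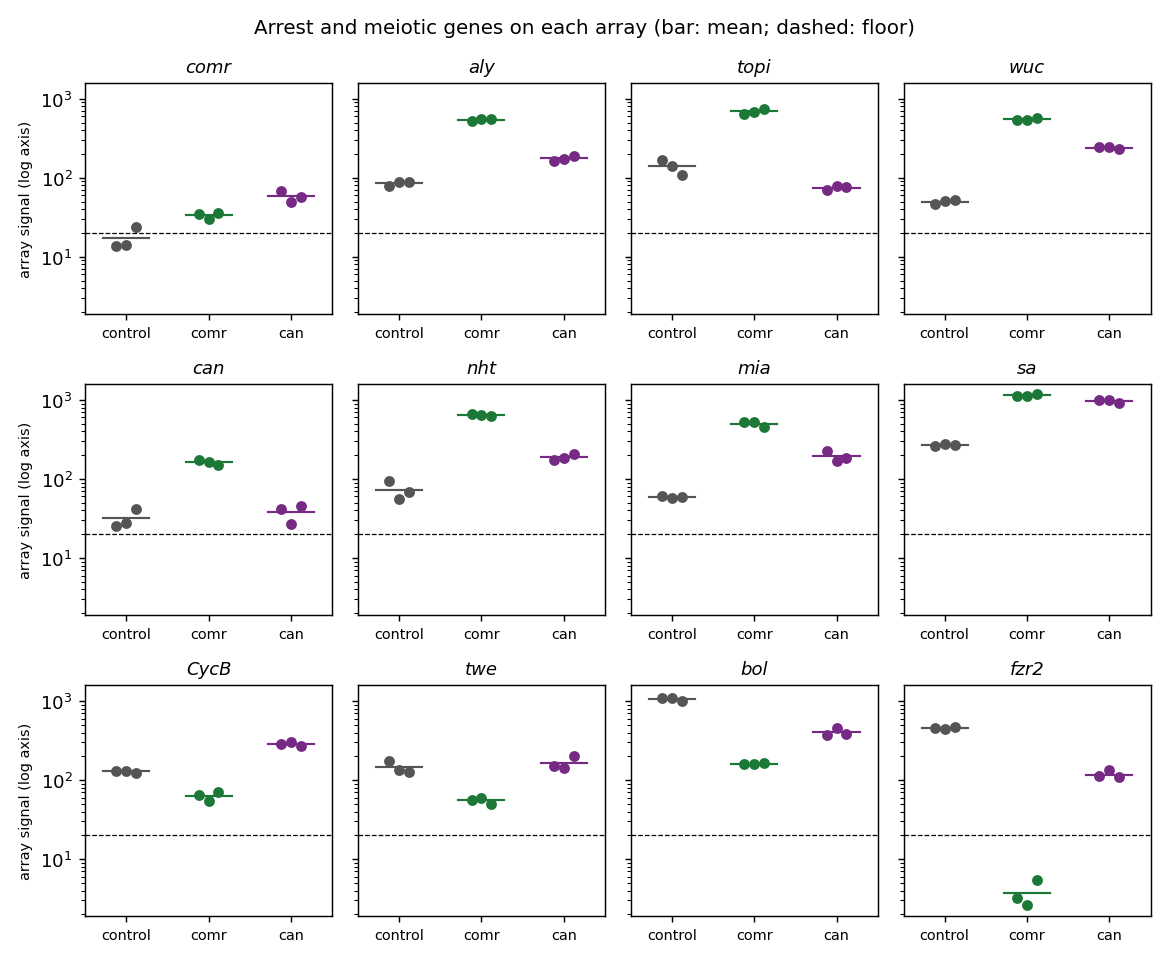
Signal on each of the 9 arrays (log axis) for 12 arrest and meiotic genes, with a bar at the group mean and a dashed line at the floor of 20.3. The comr points lie above the can points for aly, topi, wuc, can, nht and mia, and below them for CycB, twe, bol and fzr2.

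Among 11 genes for RNA-binding and translation factors of spermatocytes, 2 were called lower and none higher, beside 8.64% of all genes lower, and the list median was 0.14. eIF4E4, one of several testis-enriched cap-binding proteins, had 1.9, 2.5 and 1.2 in comr and 105, 109 and 118 in can. Every comr array lay under the floor, a level at least 5.43-fold lower (log2 difference -2.82 ± 0.09, adjusted p = 8.43e-10). cpo, encoding the RNA-binding protein Couch potato, was at 6.9, 5.5 and 6.6 in comr and 65.6, 85.9 and 88.0 in can, where it overlapped control. It was at least 3.90-fold lower (-2.09 ± 0.17, adjusted p = 2.88e-06). The paralogues eIF4E5 and eIF4E7 differed by -0.02 and -0.09, and eIF4E6 and eIF4E3 by 0.54 and 0.64, none of them called. The cap-binding paralogues thus did not move as a family. Rbp4, a spermatocyte repressor of CycB translation, was not called at 0.33.

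Calls among genes of sperm structure went both ways. In the sperm tail list, which holds the cysteine-rich Mst(3)CGP proteins and their neighbours, 4 of 11 measured genes were called lower and 2 higher, beside 8.64% and 3.74% of all genes, and the median was -0.35. dj, the gene of the sperm tail protein Don juan, had 20.2, 15.6 and 12.2 in comr, 354, 355 and 353 in can and 1832, 1750.2 and 1859 in control. The comr arrays lay at the floor, at least 17.4-fold below can (-3.54 ± 0.09, adjusted p = 2.27e-10). Its relative djl was at least 2.89-fold lower in comr, from 59.2 ± 9.79 in can to 2.03 ± 0.95. Mst87F, a cysteine-rich tail protein, was measurable everywhere, at 3963 ± 90.1 in control, 947 ± 92.3 in can and 248 ± 28.8 in comr, and the mutants differed by -1.87 ± 0.09 (adjusted p = 4.24e-08).

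Neighbouring genes of the jan cluster moved oppositely. janB had 70.1, 70.5 and 70.8 in comr and 207, 204.4 and 207.8 in can (-1.36 ± 0.07, adjusted p = 5.91e-08). ocn, which lies beside it and arose with it by duplication, had 1101, 1153 and 1146 in comr and 394, 402 and 372 in can (1.504 ± 0.07, adjusted p = 1.87e-08). Both were below control, where janB averaged 1594 ± 135 and ocn 2088 ± 139. Mst98Cb was likewise higher in comr, at 1807 ± 193 against 822 ± 9.06 (1.11 ± 0.09, adjusted p = 2.31e-06), whereas its close relative Mst98Ca was not called at -0.35. The 4 Mst84D genes, also not called, lay between -0.44 and 0.65. Mst84D and Mst98C genes are related to each other within each cluster, so a probe set may read more than 1 of them. Probe sequences were not checked.

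In sperm chromatin, 3 of 6 measured genes were called lower, beside 8.64% of all genes, and none higher, with 1 to 3 lower over the scalings. Mst77F, a linker-histone-like protein of sperm nuclei, was at 7.9, 8.2 and 16.4 in comr and 141.4, 174.5 and 183.7 in can against 1799.8 ± 11.7 in control. That is at least 8.15-fold lower in comr (-2.77 ± 0.13, adjusted p = 2.04e-08). tHMG1, an HMG-box protein of spermatids, had means of 445 ± 58.9 in comr and 989.8 ± 48.4 in can (-1.13 ± 0.09, adjusted p = 2.31e-06), and its paralogue tHMG2 was not called at 0.19. The call for tHMG1 was lost when arrays were centred on ribosomal protein genes or on spiked controls, and that for Mst33A, a protamine-like protein that stood at 26.7 ± 2.35 in can, with the first of these. ProtB lay under the floor in both mutants, where no fold can be given.

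The comet and cup genes are transcribed in spermatids and place their RNA at the growing tail ends. Of 13 measured, 7 were called lower and 1 higher, beside 8.64% and 3.74% of all genes, with 6 or 7 lower over the scalings. c-cup was the furthest apart, with 6.8, 14.9 and 10.6 in comr and 496, 513 and 489 in can. Its can level was within 2-fold of the 871 ± 36.7 of control, and comr was at least 24.6-fold below can (-4.28 ± 0.1, adjusted p = 1.81e-10). r-cup had means of 128 ± 24.0 in comr and 556 ± 59.2 in can. h-cup and wa-cup were at least 3.77-fold and 3.35-fold lower in comr. The member called higher was soti, an inhibitor of a Cullin-3 ubiquitin ligase in spermatids. It was at 899, 953 and 874 in comr and 367, 357 and 382 in can (1.26 ± 0.06, adjusted p = 3.26e-08). Not called were schuy, m-cup, hale, s-cup and w-cup, at 0.51, 0.10, -0.05, -0.35 and -0.83.

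Flagellar motor and axoneme genes followed the same division. Of 10 measured, 6 were called lower and 1 higher, beside 8.64% and 3.74% of all genes, with 5 or 6 lower over the scalings. robl22E, a roadblock-type light chain of dynein, had 2.9, 2.4 and 2.6 in comr and 218, 205 and 204 in can. All comr arrays were under the floor, at least 10.3-fold below can (-3.59 ± 0.07, adjusted p = 7.5e-11). Tektin-C, a filament protein of axonemal microtubules, was at least 7.245-fold lower, and Dic61B, an axonemal dynein intermediate chain, at least 5.15-fold lower. robl62A fell from 212 ± 31.0 in can to 26.2 ± 5.91 in comr. Dhc36C, an axonemal dynein heavy chain, was the member called higher, at 102 ± 12.6 in comr and 41.3 ± 3.49 in can (1.04 ± 0.10), and was not called with arrays centred on their medians. The testis beta-tubulin gene betaTub85D was at 242 ± 30.5 and 391 ± 35.1 and was not called.

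**Figure D4:**
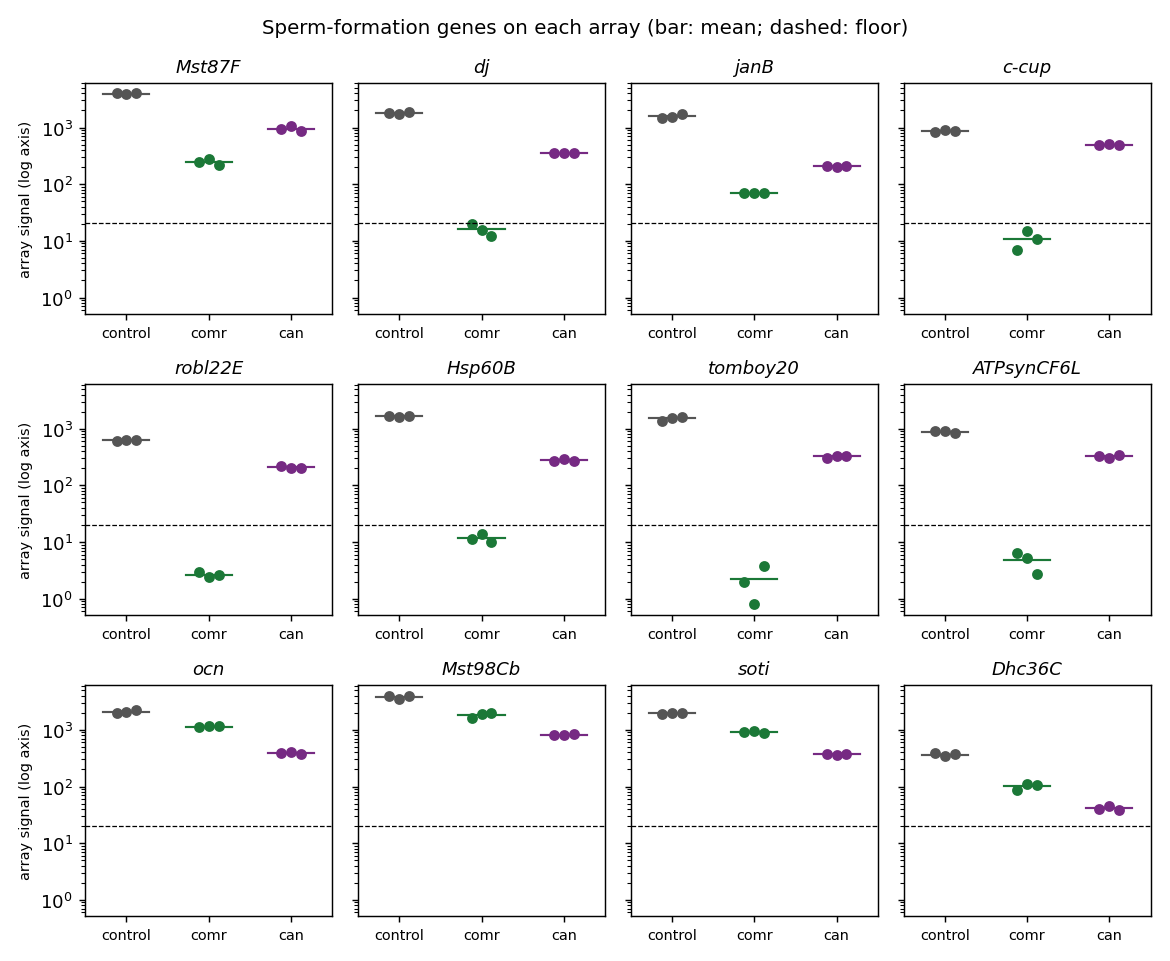
Signal on each of the 9 arrays (log axis) for 12 genes of sperm formation, with a bar at the group mean and a dashed line at the floor of 20.3. In the upper 8 panels comr lies below can and often under the floor, and in the lower 4 panels (ocn, Mst98Cb, soti and Dhc36C) comr lies between can and control.

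Genes of the sperm mitochondrial derivative, the fused mitochondria that run along the tail, were lower in comr in 7 of 11 measured cases, beside 8.64% of all genes, and higher in none. tomboy20, a testis paralogue of the Tom20 import receptor, was at 2.00, 0.8 and 3.8 in comr and 309.6, 335.4 and 326 in can, at least 15.9-fold lower (-4.22 ± 0.09, adjusted p = 8.28e-11). tomboy40 was at least 9.91-fold, ttm2, a testis Tim50 paralogue, at least 8.62-fold and Hsp60B, a testis chaperonin, at least 13.6-fold lower. The broadly used genes Opa1 and Marf, for mitochondrial fusion, were not called, at 0.22 and -0.41. fzo, the spermatid mitofusin, was among the 7.

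Testis copies of respiratory chain subunits were lower for 8 of 12 measured, beside 8.64% of all genes. ATPsynCF6L, of the ATP synthase, had 6.4, 5.2 and 2.7 in comr and 325, 301.1 and 347.5 in can, at least 15.95-fold lower (-4.04 ± 0.09, adjusted p = 1.25e-10). COX5BL, of cytochrome c oxidase, was at least 10.1-fold lower. UQCR-14L and ND-51L1, of complexes III and I, were measurable in comr at 90.1 ± 8.55 and 24.5 ± 1.63 against 404 ± 25.0 and 109 ± 8.32 in can. ATPsynbetaL and ATPsynGL, of the same synthase, were not called, at 0.49 and 0.03. Of 3 measured sperm leucyl aminopeptidases, S-Lap5 and S-Lap7 were lower in comr, by -3.06 ± 0.07 and -1.86 ± 0.13, and S-Lap8 was not called at 0.36.

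Testis proteasome subunits were lower for 7 of 12, beside 8.64% of all genes, with 6 or 7 over the scalings, and none was higher. Prosbeta5R1, a catalytic-type subunit, had 2.00, 0.9 and 1.7 in comr and 128.8, 127 and 152.4 in can, at least 6.68-fold lower (-3.11 ± 0.1, adjusted p = 8.87e-10). Prosalpha6T and Prosalpha4T2 were at least 6.72-fold and 6.59-fold lower. Prosbeta2R2 overlapped control in can, at 180.0 ± 7.54, and was at 49.4 ± 8.78 in comr. The regulatory particle copies Rpt3R, Rpt4R and Rpn12R were not called, and their differences were 0.6, 0.3 and 0.69. Among 16 general proteasome subunits none was lower and 1 was higher, near the 3.74% of all genes: Rpt5, an ATPase of the regulatory particle, at 1092 ± 106 in comr and 519.6 ± 13.5 in can (1.05 ± 0.08), a call lost without comr replicate 2 and with arrays centred on their medians. The general subunits had a median of -0.03, which turned positive under quantile normalisation and with arrays centred on ribosomal protein genes or spiked controls.

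Ribosomal protein genes were slightly below 0 in comr for 23 of 24 measured genes, with a median of -0.24. That median ran from -0.327 to -0.0196 over the scalings. None of the 24 was called, beside 8.64% of all genes lower and 3.74% higher. RpS20 had means of 3069 ± 213 in comr and 3781 ± 292 in can. Of 9 measured paralogues of ribosomal proteins, 1 was called lower, near the 8.64% of all genes: RpL10Aa, at 0.2, 0.3 and 1.6 in comr and 60.6, 56.4 and 65.1 in can, at least 2.98-fold lower. RpL22-like, a germline paralogue, did not separate the mutants, at 904 ± 19.9 and 919 ± 64, while control was at 13.6 ± 7.80. Heat shock genes gave no call in 7 measured, with a median of -0.19 that turned positive when arrays were centred on ribosomal protein genes. Hsp26 was at 2378 ± 77.9 in comr and 3520 ± 219 in can.

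**Figure D5:**
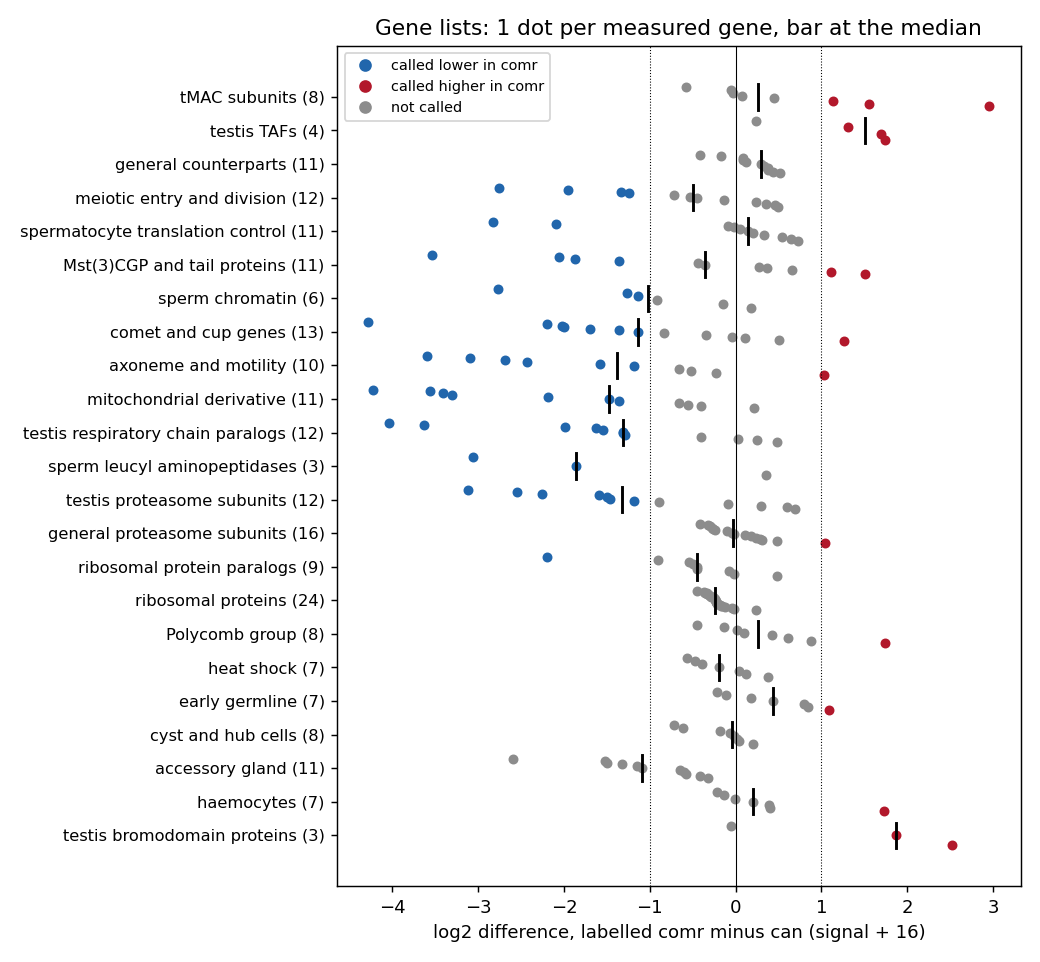
Log2 difference, labelled comr minus can, for each measured gene of 23 lists, with the number of genes in brackets, a bar at the list median, and dotted lines at 2-fold. Blue dots (called lower) gather in the sperm-formation lists. Red dots (called higher) number 3 each in the tMAC and testis TAF lists and 2 each in the sperm tail and testis bromodomain lists. Some other lists hold a single red dot. The lists for glutathione S-transferases, cytochrome P450, strain markers, neurons, muscle, fat body and ejaculatory duct and bulb are not drawn.

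The genes furthest below can in comr were, in order, bb8, sut4, CG13747, CG3213, CG12860, CG12126, Ppi1, CG8701, CG11635, CG14070, CG7214 and CG10841, with differences from -5.16 to -4.34. bb8, a testis glutamate dehydrogenase, had 2.9, 2.7 and 2.1 in comr, 576, 657 and 722 in can and 1789, 2017 and 1987 in control. It was at least 32.0-fold lower in comr (-5.16 ± 0.09, adjusted p = 3.81e-11). sut4, a sugar transporter family member, was at least 28.6-fold lower, at 6.33 ± 2.95 against 580.2 ± 11.8. CG13747 and CG14070 stood within 2-fold of control in can, at 951 ± 65.4 and 405 ± 15.4, and at 20.1 ± 2.72 and 4.13 ± 2.16 in comr.

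CG7214 differed from the other 11 in that it was a gene of can testes. Its signal was 536, 399.5 and 243.6 in can, 2.8, 2.3 and 4.5 in comr and 4.6, 5.6 and 5.1 in control. It was at least 18.4-fold higher in can than in comr (-4.35 ± 0.23, adjusted p = 7.07e-08), with a wide spread over the can arrays. Of the 1015 probe sets called lower, 6 were above control in can and below it in comr, beside 6 of all 13966. Another 59 (5.81%) were above control in can and within 2-fold of it in comr, as was CG7214, beside 2.42% of all.

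The genes furthest above can in comr were CG9360, GstD5, Tmx3, topi, CG3347, Uhg1, CG7907, tbrd-2, Ccdc114, CG15548, Cyp28d1 and Sr-CII, with differences from 3.41 to 2.33. CG9360 had 529, 427 and 555 in comr and 30.5, 35.7 and 32.1 in can (3.41 ± 0.15, adjusted p = 1.32e-08), and control was at 15.8 ± 5.37. Tmx3, a membrane thioredoxin, had 307, 312 and 326 in comr against 21.3, 30.6 and 17.9 in can (3.09 ± 0.14, adjusted p = 1.66e-08). Uhg1, a host gene of small nucleolar RNAs, was at least 8.95-fold higher in comr, at 182 ± 11.7, with all can and control arrays under the floor. Ccdc114, whose human homologue docks outer dynein arms, was likewise found above the floor in comr alone, at 94.5, 68.2 and 70.2.

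For 2 of these 12 genes the can mutant was the group apart. CG15548 had 92.8, 92.7 and 108.3 in comr and 124.2, 102.8 and 105.5 in control, which overlap, and 3.00, 3.6 and 13.3 in can, at least 4.81-fold lower. Sr-CII, a class C scavenger receptor, had 82.0, 87.3 and 85.1 in comr, 62.2, 60.3 and 58.4 in control and 8.8, 3.1 and 1.00 in can, at least 4.17-fold lower. Of the 455 probe sets called higher, 15 (3.3%) were at least 2-fold below control in can and within 2-fold of it in comr, beside 0.723% of all.

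The testis bromodomain genes, a list added after values were seen, were called higher in comr for 2 of 3 measured, beside 3.74% of all genes. tbrd-2, a bromodomain protein of spermatocytes, had 1076, 1083 and 1084 in comr and 180.3, 161.7 and 181.9 in can, which overlapped control at 198.8, 176.2 and 196 (2.53 ± 0.07, adjusted p = 4.64e-10). tbrd-1, its partner, averaged 477 ± 44.1 and 119 ± 2.80 (1.87 ± 0.09, adjusted p = 2.72e-08). tbrd-3 was above control in both mutants and not called, at 371 ± 18.5 and 387 ± 53.9.

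Of 8 measured Polycomb group genes 1 was called higher, a count that the 3.74% of all genes called higher does not set apart, with 1 or 2 over the scalings. esc, the WD40 subunit of the histone methyltransferase complex PRC2, had 281, 302.2 and 301.3 in comr, 66.6, 69.2 and 98.9 in can and 14.4, 5.8 and 7.5 in control. The 3 groups did not overlap, and the mutants differed by 1.74 ± 0.16 (adjusted p = 6.73e-06). Its paralogue escl was not called, at 219 ± 16.6 and 159 ± 14.3, and E(z), the catalytic subunit, was at 132 ± 3.49 and 64.7 ± 8.68, a difference of 0.88 that was under 2-fold.

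Markers of other cells gave few calls, single genes in lists of 4 to 7, beside 3.74% of all genes called higher. Of 7 measured early germline genes, 1 was called higher in comr, with 0 to 2 over the scalings: bgcn, a partner of Bam in dividing spermatogonia, at 253 ± 17.9 and 111 ± 5.63 (1.09 ± 0.08, adjusted p = 1.75e-06). Mean signal over these 7 genes was 121 to 124 on the comr arrays and 68.8 to 83.7 on the can arrays, with no overlap, and 40.1 to 41.4 in control. The share of early germ cells in the differences above was not tested. None of 8 cyst and hub genes was called, which the 8.64% of all genes lower and 3.74% higher do not set apart. Mean signal over the 8 was 31.6 to 32.1 in comr and 36.2 to 36.9 in can. Their median of -0.04 turned positive under quantile normalisation and with arrays centred on ribosomal protein genes or spiked controls. The defining cyst marker tj was under the floor on every array.

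Among 7 haemocyte genes 1 was called higher in comr. Hml, encoding Hemolectin, had 88.6, 97.6 and 102.1 in comr and 12.9, 17.2 and 24.1 in can, while control lay at 14.3, 6.5 and 15.4 (1.73 ± 0.18, adjusted p = 1.65e-05). The haemocyte receptors NimC1 and eater were under the floor on every array. Mean signal over the 7 genes was 89.3 to 102 in comr and 62.0 to 71.0 in can. No gene of the lists for accessory gland (11 measured), ejaculatory duct and bulb (3), fat body (6) or muscle (5) was called. Over all genes 8.64% were lower and 3.74% higher, and in lists this short those shares do not set a count of none apart. The duct and bulb gene EbpIII was at 340 ± 39.0 in comr and 587 ± 58.0 in can, without overlap. Its difference of -0.76 ± 0.12 was under 2-fold. Gld, of the same list, was at 0.25 with overlapping arrays. All 11 accessory gland genes lay below 0, with a median of -1.09 and overlapping arrays. Of 4 neuron genes, nSyb was called higher at 33.2 ± 11.4 against 7.97 ± 5.16, a call lost without comr replicate 1, can replicate 1 or can replicate 2, and the defining neuron marker elav was under the floor on every array.

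The strain markers measured were not called either. e, the gene of the ebony allele in control and can, was at 40.4 ± 6.49 in control, 24.3 ± 2.13 in can and 13.4 ± 2.52 in comr. bw, mutant in the comr line, was at 33.4 ± 5.27 in comr and 19.0 ± 7.54 in can (0.51 ± 0.18), and cn, also mutant there, overlapped between the groups. w and red were not analysed here.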

How the data were processed

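The authors deposited linear signal intensity values for 9 one-colour Affymetrix arrays of biotin-labelled RNA made from 2 µg of total RNA; GCOS 1.4 is named per the submitters' processing notes, while for the signal algorithm, background step, filters and genome build no entry was found in the labels. The files show that each array was scaled to a 2% trimmed mean near 100, so a change in total RNA per testis cannot be seen. Array number limits precision. Gene symbols came from the platform annotation (12443 probe sets with 1 symbol, 327 with several, 1196 with none), of which 12394 were matched to a current RefSeq entry for names and chromosome arms.

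From these, log2(signal + 16) was fitted with limma 3.58.1 (lmFit, eBayes with trend, two-sided) in R 4.3.3 over all 9 arrays with 1 coefficient per group and no low-signal filter, and p-values were adjusted by Benjamini-Hochberg. The fit was tested on simulated data. Lists used 1 probe set per gene, the brightest. Members and lists were chosen with earlier results of these data known. The naming rule took comr, can, aly, the strain markers and the 12 largest differences each way with non-overlapping arrays. Per list it took up to 4 called members or, with fewer than 2 called, the 2 brightest. Some genes so taken, mostly uncalled ones, are not printed above. Further list members were named after their values were seen. Alternatives were the offset, filters, scalings, array weights, a replicate block, thresholds and leaving out arrays. Promoter letters were not analysed here.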

Additional observations from a re-analysis of the deposited data

How the results depend on the processing

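The direction of every called gene named by the rule was the same in all alternatives run. These genes were picked at 2-fold or more, and the median over all probe sets stayed between -0.05 and 0.06 over the scalings. A reversal by scaling was therefore hardly possible. Of 77 named genes that were called, 12 lost the call under at least 1 alternative other than the 4-fold threshold, mostly at an offset of 64. At the 4-fold threshold every named gene with a smaller difference, among them aly, can, nht and CycB, also loses its call. As deposited 1015 probe sets were lower and 455 higher. The counts were 1593 and 830 at an offset of 1, 502 and 148 at an offset of 64, 2443 and 2494 with no minimum fold, and 438 and 27 at 4-fold or more. Centring on spiked controls gave 717 higher. Leaving out 1 array gave 1013 to 1028 lower and 454 to 485 higher. nSyb was not called without comr replicate 1, can replicate 1 or can replicate 2, and Rpt5 was not called without comr replicate 2. Genes that changed sign were all uncalled. Taf6 came to 0.0377 with ribosomal protein centring and 0.00817 with spiked centring. Prosbeta4 came to 0.0801, 0.173 and 0.140 with quantile, ribosomal protein and spiked scaling, to 0.00658 without the 2 arrays rich in accessory gland RNA, and ran from -0.0827 to 0.00772 without 1 array. chinmo came to 0.0253, 0.157 and 0.137 under those scalings, to 0.0237 without the 2 arrays, and ran from -0.123 to 0.0619 without 1 array. Nrt came to -0.0268 with median centring and ran from -0.0879 to 0.131 without 1 array. brp came to 0.0939, 0.0118 and 0.0135 under the scalings and ran from -0.121 to 0.0882 without 1 array. The cause was not tested. Same-numbered arrays of the mutants correlated at 0.174, 0.136 and -0.083 in their deviations from group means, so numbers were not taken as pairs; with a replicate block 1016 were lower and 457 higher. All 3 arrays of the dimmer mutant lay at or under the floor for 637 of the 1015 lower calls and 76 of the 455 higher calls, whose folds are not measured.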

Other observations

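Single detoxification genes, listed by name after values were seen, held large differences in both directions, but the counts per family lay near the shares of all genes. Of 34 glutathione S-transferase genes 2 were called lower and 2 higher in comr, and of 81 cytochrome P450 genes 5 were lower and 2 higher, beside 8.64% lower and 3.74% higher over all genes. GstD5 had 1025, 924 and 1068 on the comr arrays, 108.7, 75.6 and 95.3 on the can arrays and 100.9, 83.3 and 101 in control (3.23 ± 0.12, limma adjusted p = 3.45e-09). GstE1 had 28.8, 20.1 and 27.8 in comr, 375.4, 416 and 442.1 in can and 356.1, 366 and 419 in control (-3.36 ± 0.11, adjusted p = 1.1e-09). For both genes can overlapped control and comr stood apart, upward for GstD5 and downward for GstE1. Within the GstD cluster, GstD3 was higher in comr and GstD9 lower, by 2.08 ± 0.09 and -2.04 ± 0.10. GstD genes lie side by side and are similar in sequence, so a probe set may read more than 1 of them.

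Among the P450 genes, Cyp12d1-d was high in can alone. It had 14.7, 4.20 and 9.90 in comr, 375, 341.5 and 325.5 in can and 32.4, 32.3 and 28.1 in control, at least 17.1-fold lower in comr than in can (-3.85 ± 0.15, adjusted p = 6.84e-09). Cyp4p3 was higher in comr, at 397 ± 21.0 against 87.0 ± 10.2 (2.01 ± 0.17, adjusted p = 3.15e-06), and Cyp28d1 was spread widely over the comr arrays, at 252.7, 95.4 and 116.3. Such genes are known to vary between strains, and strain and mutation cannot be told apart here.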
